A study of Mus musculus with 3 samples.

Results

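The genes of the RUNX transcription factor family and of its shared partner subunit were examined for Runx3 occupancy in resting natural killer (NK) cells. The 4 genes, Runx1, Runx2, Runx3 and Cbfb, were taken by symbol from 22271 protein-coding genes of the mouse mm9 annotation. Each gene body was extended by 100 kb on either side, a span called the window below. The 4 windows held 58 of 15524 Runx3-bound regions, called peaks below, and 107 of 49902 regions marked by histone H3 monomethylated at lysine 4 (H3K4me1), a mark of enhancers and of the edges of promoters.

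The cells were NK lymphocytes from the spleen of ICR mice, fixed straight after isolation without activation. Chromatin immunoprecipitation sequencing (ChIP-seq) was done with an in-house polyclonal antibody to Runx3, with a monoclonal antibody to H3K4me1 and with non-immune rabbit serum (NIS) as the control, and the labels name no mutant allele and no treatment. The labels name NKp46 as the sorting marker and the methods name DX5. There was 1 sample per antibody and 1 list of regions for each of Runx3 and H3K4me1. The lists hold coordinates only, so the depth and the height of a region are unknown and no spread between replicates could be computed.

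RUNX proteins bind DNA through the Runt domain, and CBFb, the product of Cbfb, binds no DNA itself but joins a RUNX protein and strengthens its binding. Runx1 is known for its role in blood stem cells, Runx2 for bone formation, and Runx3 for cytotoxic lymphocytes and sensory neurons. Each of the 3 Runx genes is transcribed from a distal promoter, P1, and a proximal promoter, P2, which give proteins with different N-terminal ends. Here transcripts whose protein begins with MAS mark P1 and those whose protein begins with MRI mark P2. Cbfb has 1 annotated promoter in this sense. The distances below are given in the direction of transcription, so that a negative value is upstream.

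The label of the cells was checked at marker genes. With 5 kb on either side, Ncr1, which encodes NKp46, held 2 Runx3 peaks and 4 H3K4me1 regions, and Klrb1c, which encodes NK1.1, held 4 of each. Of T cell genes, Cd8a had 0 peaks and 0 regions, and Cd3e had 1 peak and 2 regions.

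The 3 P1 promoters shared a run of 18 bases with a pair of RUNX sites. RUNX sites were read as TGTGGT, its variant TGTGGC, the form TGCGGT or its variant TGCGGC, on either strand, and overlapping matches were each counted. The run was found as the longest stretch common to the 3 windows from 250 bases before to 50 bases after each P1 start, so its presence at all 3 was fixed by the search. It occurred at 3 places in the mm9 chromosomes, and these were the 3 P1 promoters. It is printed with its neighbouring bases because it carries both RUNX sites side by side at each P1. The capitals mark RUNX matches, read 5′ to 3′ on the strand of the gene. The stretches lie at chr16:92826270-92826299 (minus strand), chr17:44951532-44951561 (minus strand) and chr4:134676418-134676447 (plus strand), all on mm9.
Runx1 P1: cataaacaACCACAgaACCACAagttgggt
Runx2 P1: cacaaacaACCACAgaACCACAagTGCGGT
Runx3 P1: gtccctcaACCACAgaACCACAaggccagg

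The run began 18 bases after the Runx1 P1 start, 25 bases before the Runx2 P1 start and 143 bases before the Runx3 P1 start. The copies at Runx1 and Runx3 lay inside a Runx3 peak. The copy at Runx2 lay outside the list, 3953 bases from the nearest peak. All 3 copies lay inside an H3K4me1 region. Of 45969 starts of protein-coding transcripts, 5 had the whole run in such a window of 300 bases, a share of 0.0109%. The run occurred only at the 3 P1 promoters, so these 5 starts all lie there and the share is no measure of specificity. At least 1 RUNX match, a far shorter sequence, was in 46.4% of the windows.

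The 300 bases at the middle of the Runx3 P2 peak (chr4:134707916-134708215, plus strand, mm9), upstream of the P2 start and within intron 1 of the P1 transcript, held 4 matches and no TGTGGT. In the Runx1 P2 peak the match nearest the middle was TGCGGT, shown with its neighbours at chr16:92697116-92697145 (minus strand), within the 5′ UTR of the P2 transcripts. The single match of the peak at the Cbfb start, TGCGGC read on the other strand, lay 14 bases into the 5′ UTR (chr8:107694576-107694605, plus strand) and followed an ETS core, aggaagt. These 3 sequences are shown to set the P2 and Cbfb sites beside the P1 run, with RUNX matches in capitals.
Runx3 P2: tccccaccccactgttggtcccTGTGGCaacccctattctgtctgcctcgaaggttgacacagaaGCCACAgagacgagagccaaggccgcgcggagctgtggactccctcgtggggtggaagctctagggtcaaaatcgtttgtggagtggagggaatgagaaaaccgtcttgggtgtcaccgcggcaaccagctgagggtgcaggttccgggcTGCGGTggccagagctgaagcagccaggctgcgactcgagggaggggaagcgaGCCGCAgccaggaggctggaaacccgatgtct
Runx1 P2: cgctccacctgcTGCGGTtacacggtgctc
Cbfb start: gaggaagtggcgGCCGCAgccgggggaggc

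Counted over whole peaks, the form TGCGGT or TGCGGC made up 1 of 5 matches at Runx1 P1, 3 of 5 at Runx1 P2, 1 of 11 at Runx3 P1, 2 of 6 at Runx3 P2 and 1 of 1 at Cbfb. Over these 5 peaks it was 8 of 28 matches (28.6%). In the other 53 peaks of the 4 windows it was 29 of 186 (15.6%), and over all 15524 peaks it was 24.6%. The other 53 include the second peak near Runx1 P2 and peaks at starts of neighbouring genes, so they are not all away from promoters. The numbers per peak are small, and no test was made between promoters.

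**Figure D1:**
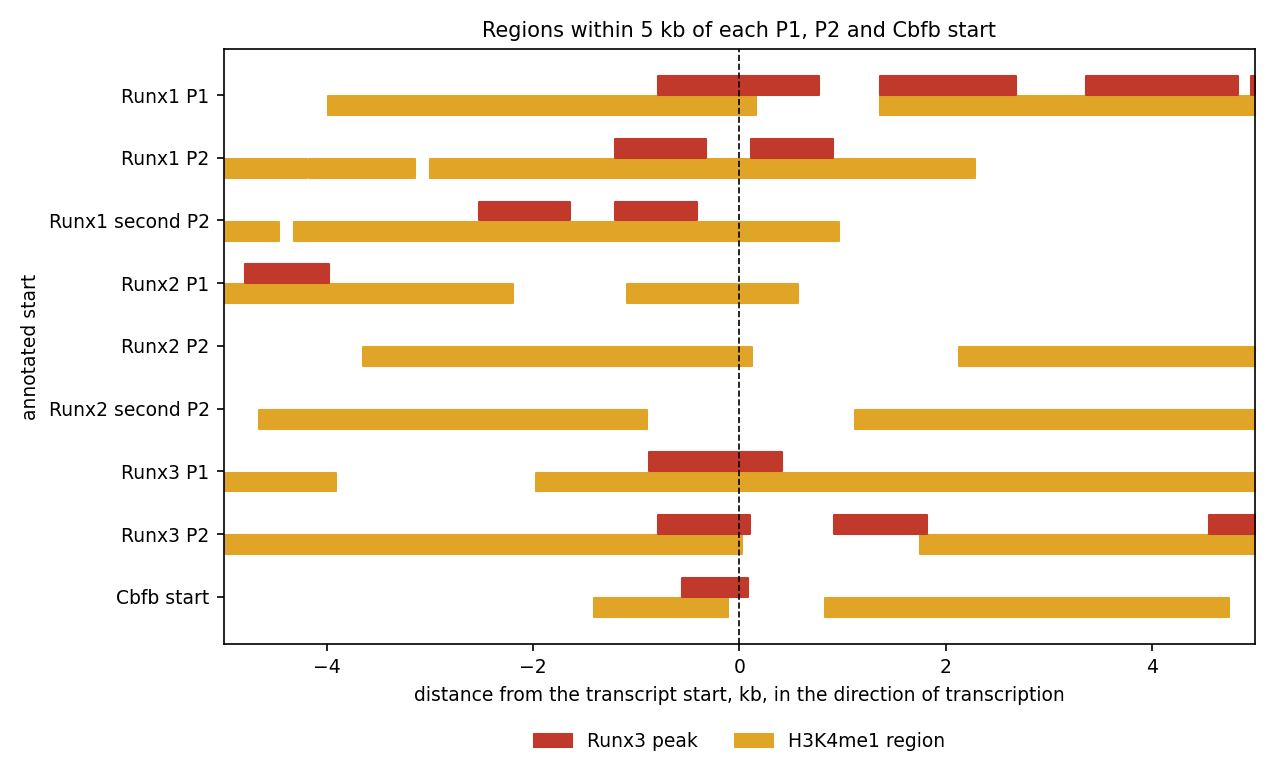
Runx3 peaks (red) and H3K4me1 regions (yellow) within 5 kb of each annotated P1, P2 and Cbfb start; the horizontal axis is the distance from the start in kb in the direction of transcription, and regions are cut at the edge of the plot. Peaks lie at or beside the starts of Runx1, Runx3 and Cbfb, while the Runx2 starts have none within 1 kb.

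Runx3 peaks lay at promoters of Runx1, Runx3 and Cbfb, and none was listed at the annotated promoters of Runx2. Of the 8 P1 and P2 starts of the Runx genes, of which Runx1 and Runx2 each have a second P2 start, 5 had a Runx3 peak within 1 kb. Over all starts of protein-coding transcripts the share was 26.8%. With Cbfb, 6 of 9 starts had a peak and 7 of 9 lay inside an H3K4me1 region, against 35.7% of all starts. Starts of 1 gene share their surroundings and are not independent.

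At Runx1 P1 (start at chr16:92826311, minus strand) the peak spanned chr16:92825535-92827099, a width of 1565 bp, with its midpoint 6 bp upstream of the start. H3K4me1 covered 60.8% of that peak. The marked region ended 162 bp past the start, and the next one began after a gap of 1197 bp. At Runx1 P2 (start at 92697573) no peak covered the start itself. One peak (chr16:92696662-92697465, 804 bp) began 108 bp downstream of it, between the P2 start and the second P2 start at 92696255, and another (chr16:92697896-92698778, 883 bp) had its midpoint 0.764 kb upstream of the P2 start. Both lay wholly in 1 H3K4me1 region of 5286 bp.

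At Runx3 P1 (start at chr4:134676567, plus strand) the peak spanned chr4:134675688-134676980, 1293 bp wide, and held 11 RUNX matches. It lay wholly in an H3K4me1 region of 7692 bp and also covered the start of Gm16225, a noncoding gene on the opposite strand. At Runx3 P2 (start at 134708411) the peak spanned chr4:134707620-134708511, 892 bp wide with 6 RUNX matches. The H3K4me1 region there ended 22 bp past the start and was followed by a gap of 1731 bp, with another Runx3 peak (chr4:134709333-134710228) of which H3K4me1 covered 7.14%. That peak covered the annotated start of a noncoding Runx3 transcript, and is counted below in intron 2 of the P1 transcript. So at Runx3 the P1 start lay inside marked chromatin and the P2 start at the edge of a gap.

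At Cbfb (start at chr8:107694574, plus strand) the peak spanned chr8:107694013-107694657, 645 bp wide, and H3K4me1 covered 70.1% of it. The start itself lay in a gap of 940 bp between marked regions, 110 bp from the nearer edge. At Runx2 P1 (start at chr17:44951530, minus strand) the nearest peak was 3.98 kb upstream, at chr17:44955508-44956326. At Runx2 P2 (start at 44873597) the nearest peak was 33.0 kb away. Both Runx2 starts were inside H3K4me1 regions, while the second P2 start, at 44872583, lay in a gap of 2013 bp.

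**Figure D2:**
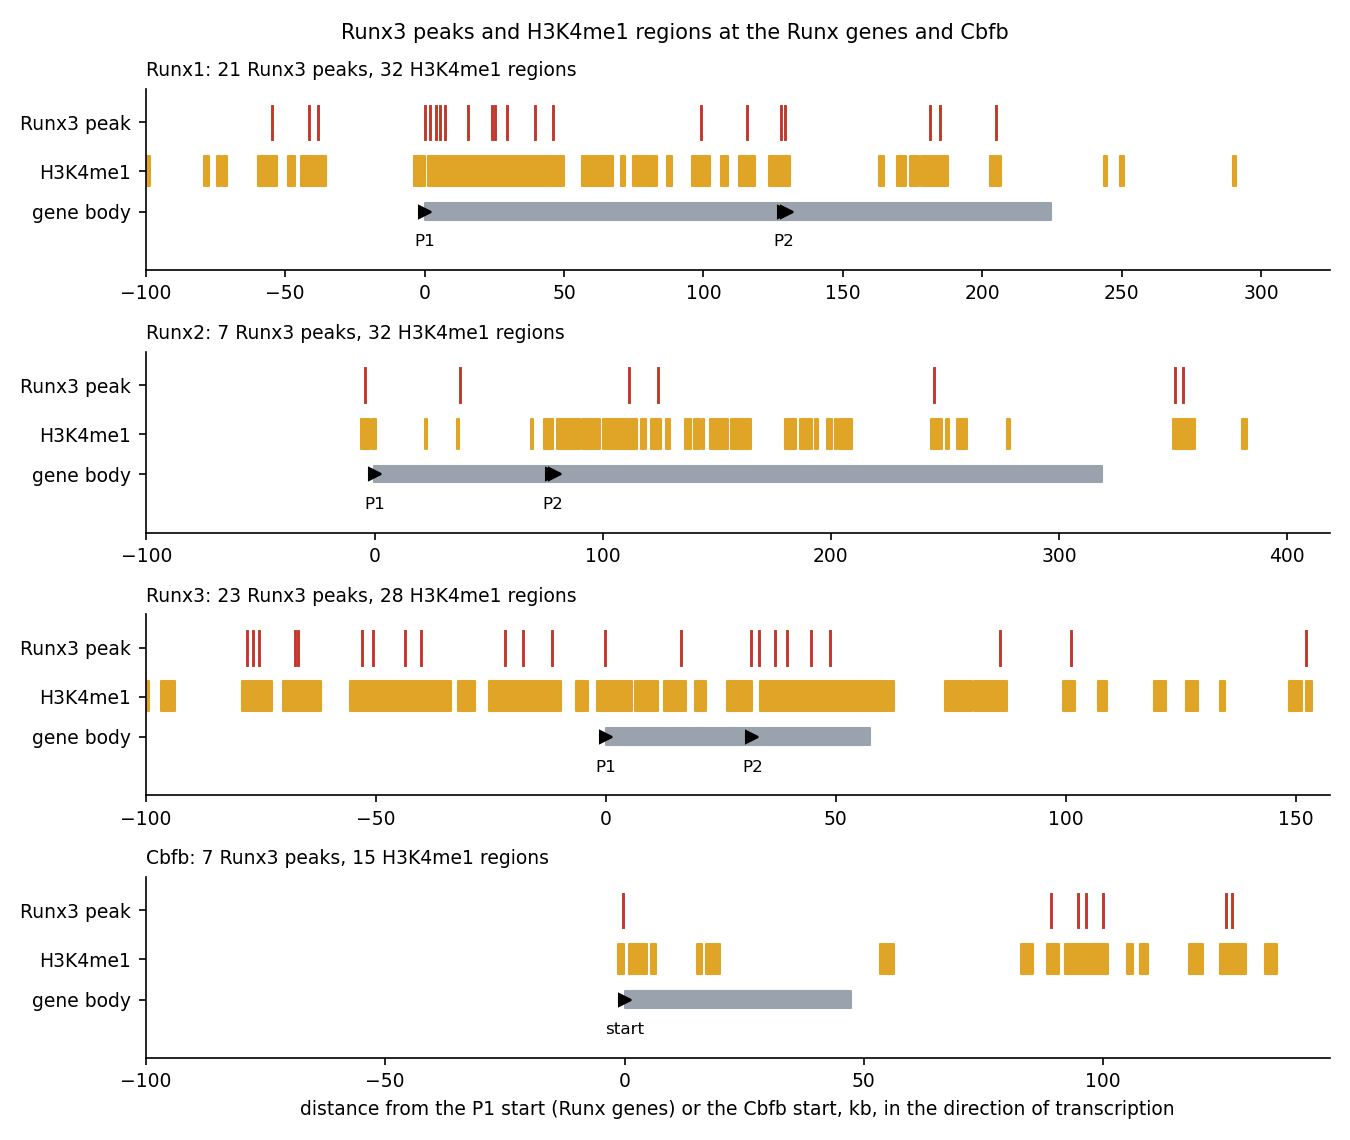
Maps of the 4 windows, with the distance from the P1 or Cbfb start in kb on the horizontal axis (a different scale in each panel); red lines mark midpoints of Runx3 peaks, yellow bars H3K4me1 regions, grey bars gene bodies and black arrowheads annotated starts. Runx3 peaks are dense upstream of and within Runx3 and in the first part of Runx1, and sparse at Runx2 and within Cbfb.

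Each of the 4 windows held Runx3 peaks, but their number ranged from 7 at Runx2 and at Cbfb to 23 at Runx3. The order by number depended on the flank. With 50 kb on either side Runx1 had 20 peaks, Runx3 15, Runx2 7 and Cbfb 4. Over the gene bodies alone Runx1 had 18, Runx3 8, Runx2 4 and Cbfb 1. At least 1 peak was in the window of 72.4% of all protein-coding genes and over the body of 33.6%, and peaks were present in all 4 windows and over all 4 bodies here. H3K4me1 regions were also in all 4 windows, against 84% of genes. The median gene had 2 peaks in its window, with quartiles of 0 and 5. Runx3 had 8.94 peaks per 100 kb, Runx1 had 4.95, Cbfb 2.83 and Runx2 1.35, against a median of 0.935. With single lists, no error can be put on this order.

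Runx3 stood high among all genes by each of these counts. Its window held 23 peaks, and 11 genes (0.0494%) had at least as many, Runx3 included. By peaks per 100 kb there were 37 such genes (0.166%). H3K4me1 covered 143.7 kb or 55.8% of its window, a share reached by 23 genes (0.103%). The windows of neighbouring genes overlap and share peaks, so these are not separate loci.

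For Runx1, 27 genes (0.121%) had at least 21 peaks in their window, but its window of 424.6 kb was long, and 787 genes (3.53%) had at least as many per 100 kb. Over the gene body alone Runx1 had 18 peaks, a number reached by 4 genes, Runx1 included. That body is 224.6 kb long, and this count makes no allowance for length. H3K4me1 covered 34.9% of the Runx1 window, and 519 genes (2.33%) had as much. For Runx2, H3K4me1 covered 23.3% of the window, reached by 10.7% of genes, while 40.1% of genes had as many Runx3 peaks per 100 kb. For Cbfb the share marked was 16.4%, reached by 22.7% of genes, with a density of peaks reached by 16.3%. By the number of peaks in the window, 15.8% of genes had at least the 7 of Runx2 and of Cbfb.

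**Figure D3:**
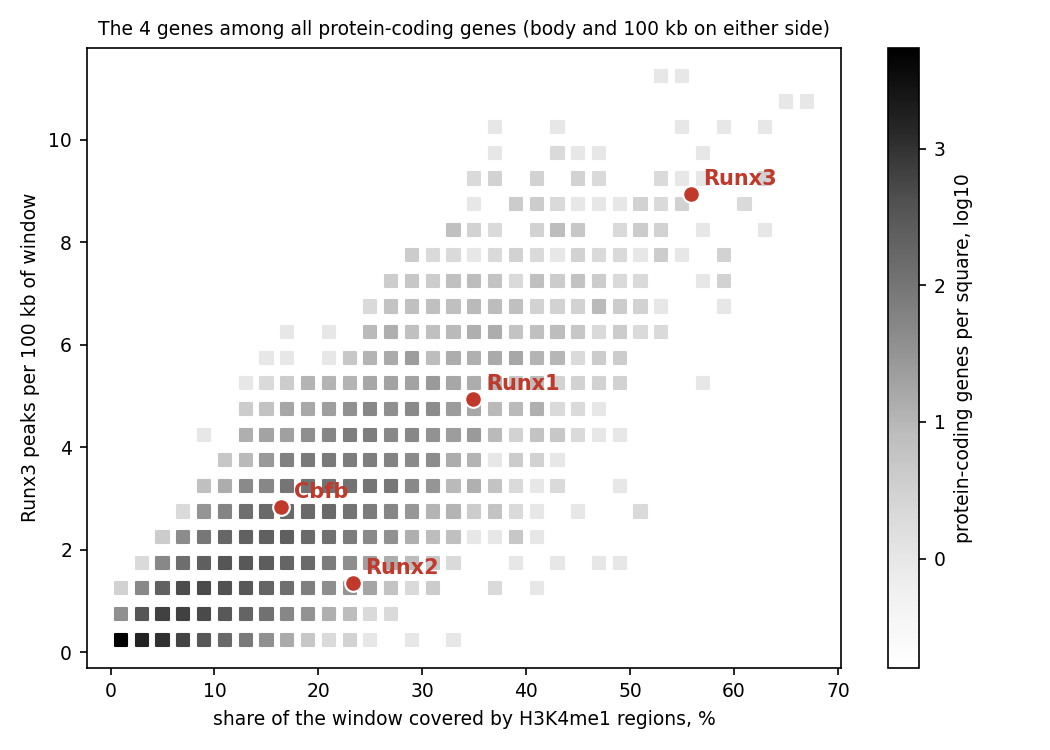
Runx3 peaks per 100 kb of window (vertical axis) against the percent of the window covered by H3K4me1 regions (horizontal axis) for all 22271 protein-coding genes in grey squares, darker for more genes on a log10 scale; red points are the 4 members. Runx3 lies far to the upper right at 55.8% and 8.94 peaks per 100 kb, and Runx2 lies low among genes with a similar marked share.

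The share of H3K4me1 regions that held a Runx3 peak differed in the same way. It was 14 of 28 regions at Runx3, 11 of 32 at Runx1, 4 of 15 at Cbfb and 5 of 32 at Runx2, against 28.6% of all regions. A region that reached across the window edge was counted whole, with any peak in its outer part. Runx1 and Runx2 thus had the same number of marked regions and differed in how many carried Runx3.

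In Runx1 the peaks were gathered in the first part of the gene. The 21 peaks comprised 3 upstream, 1 over P1 and 17 in introns, of which 14 were in intron 2 of the P1 transcript, the intron that contains the first exon of P2. Between the P1 and P2 starts, a stretch of 128.7 kb, 13 peaks had their midpoints, or 10.1 per 100 kb, and H3K4me1 covered 71.4%. From P2 to the end of the gene there were 4 peaks and 25.2% coverage. A single H3K4me1 region of 43.2 kb, from 1.36 kb to 44.5 kb past P1, held 9 peaks. The 3 upstream peaks lay 38.4, 41.3 and 54.8 kb before P1. In the 3′ flank there were 0 peaks, and H3K4me1 covered 3.79% of it.

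The peak with the most RUNX matches of the 4 windows was in this part of Runx1. It spanned chr16:92823624-92824947, with its midpoint 2.03 kb past P1, and held 19 matches, each of the form TGTGGT. Of all Runx3 peaks, 21 (0.135%) had at least as many. In this peak 17 of the 19 matches lay in a tract of 428 bp bounded by CA or TG repeats, so the high number came from this tract. Whether the matches act as separate sites was not tested. The 120 bases with the most matches (chr16:92824254-92824373, minus strand, mm9) are printed to show the repeat, with matches in capitals.
Runx1 intron repeat: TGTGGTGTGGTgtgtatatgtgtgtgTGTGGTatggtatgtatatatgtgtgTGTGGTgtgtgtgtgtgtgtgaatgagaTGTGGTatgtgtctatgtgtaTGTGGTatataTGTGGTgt
Without this peak the other Runx1 peaks held 52 matches in place of 71.

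At Runx3 most peaks lay upstream of the gene or past P2. Of 23 peaks, 12 were in the 5′ flank, 2 over P1 and P2, 6 in introns and 3 in the 3′ flank. The upstream peaks lay from 11.8 to 78.0 kb before P1 and fell into 5 H3K4me1 regions, which held 3, 2, 4, 2 and 1 of them. The widest of these regions was 21.9 kb. The widest Runx3 peak of the 4 windows, 2314 bp at chr4:134653490-134655803, was 21.9 kb upstream of P1 and had 15 RUNX matches, none of them in a CA or TG repeat tract. Of the other upstream peaks, those at 43.6 kb and 17.9 kb had 13 and 10 matches, and the others had between 0 and 4. The second widest, 1600 bp at 40.2 kb, had 2. No other annotated gene started within 1 kb of any of the 12.

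Within Runx3, 4 peaks lay wholly in an H3K4me1 region of 21.1 kb that began 33.6 kb past P1, in introns 3 and 4 of the P1 transcript. The peak just past P2, in intron 2, shared 64 bp with the edge of that region. From P2 to the gene end, 25.5 kb, H3K4me1 covered 92.5%, and 5 peaks had their midpoints there, 19.6 per 100 kb. Between P1 and P2 there were 2 peaks, of which 1 was the P2 peak itself, and 72.9% coverage. In the 3′ flank, 2 of the 3 peaks lay in Clic4, a neighbouring gene for a chloride channel protein, and 1 of these covered a Clic4 start.

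At Runx2 the 7 peaks were spread over a window of 518.8 kb. The longest stretch without a peak between neighbouring peaks was 120.3 kb. One peak was upstream of P1, 3 were in introns, 1 in a part of the gene body past the end of the P1 transcript used for numbering, and 2 in the 3′ flank. Marked chromatin was unevenly placed, with 9.51% coverage between P1 and P2 and 40.2% from P2 onward. The widest peak there, 1467 bp at chr17:44839112-44840578, lay in intron 4 within an H3K4me1 region of 13.3 kb and had 4 RUNX matches. The peak in intron 1, at chr17:44913651-44914219, covered a start of Supt3h, a gene for a subunit of histone acetyltransferase complexes that runs the other way across this locus. It was the single peak of the 58 without H3K4me1, 300 bp from the nearest marked region. The peak upstream of Runx2 P1 also lay within Supt3h.

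At Cbfb the peak at the start was the only one over the gene, and the next was 88.6 kb further on. The 5′ flank held no other peak, and H3K4me1 covered 1.30% of it. The other 6 peaks were in the 3′ flank, from 89.2 to 127 kb past the start, and 5 of them lay within 1 kb of a start of another gene (Tradd, Fbxl8, Hsf4, Exoc3l or E2f4). The Cbfb window held 13 other protein-coding genes, against 1 in each window of the Runx genes. Most peaks of the Cbfb window thus lay nearer to starts of other genes than to Cbfb.

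The nearest peaks left out by the windows were 100.5 kb upstream of Runx1, 100.9 kb upstream of Runx3, 107.8 kb downstream of Runx3 and 108.1 kb downstream of Cbfb. For Runx2 the nearest were 238.8 kb downstream and 618.4 kb upstream.

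Nearly every Runx3 peak of the 4 windows overlapped H3K4me1. The number was 57 of 58 (98.3%, 95% Wilson interval 90.9 to 99.7, counting error only), against 95.7% of all peaks, which lies inside the interval. By the midpoint it was 55 of 58 (94.8%) against 83.6% of all peaks, below the interval of 85.9 to 98.2. Peaks of 1 locus are not independent, so the interval is too narrow. The median width was 851.5 bp against 825 bp over all peaks.

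RUNX sites were present in 55 of 58 peaks (94.8%, interval 85.9 to 98.2) against 93.3% of all peaks, which lies inside the interval. Within the central 200 bp the shares were 70.7% and 69.2%. The median number of matches per kb was 3.18 and 2.96. The 3 peaks without a match were 1 in intron 6 of Runx1, 1 upstream of Runx3 (66.9 kb before P1) and the one just past Runx3 P2.

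Sites of 2 other families were also counted. The ETS core, AGGAAGT or CGGAAGT, was in 29 of 58 peaks (50%, interval 37.5 to 62.5) against 41.8% of all peaks. It was in 6 of 7 peaks at Cbfb, 11 of 21 at Runx1, 3 of 7 at Runx2 and 9 of 23 at Runx3. The AP-1 site, TGACTCA or TGAGTCA, was in 16 of 58 (27.6%, interval 17.8 to 40.2) against 16.5% of all peaks. It was in 4 of 7 peaks at Runx2, 7 of 21 at Runx1, 5 of 23 at Runx3 and 0 of 7 at Cbfb. Because peaks of 1 locus are not independent, both intervals are too narrow, and the difference for AP-1 was not tested. A RUNX match within 10 bp of an ETS match, a count chosen after the Cbfb sequence was seen, was in 4 of 58 peaks (6.90%) against 5.80% of all. They were the Cbfb start, the Runx2 peak at Supt3h, 1 peak in intron 4 of Runx2 and 1 upstream of Runx3. A match of letters does not show that a factor was bound there.

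**Figure D4:**
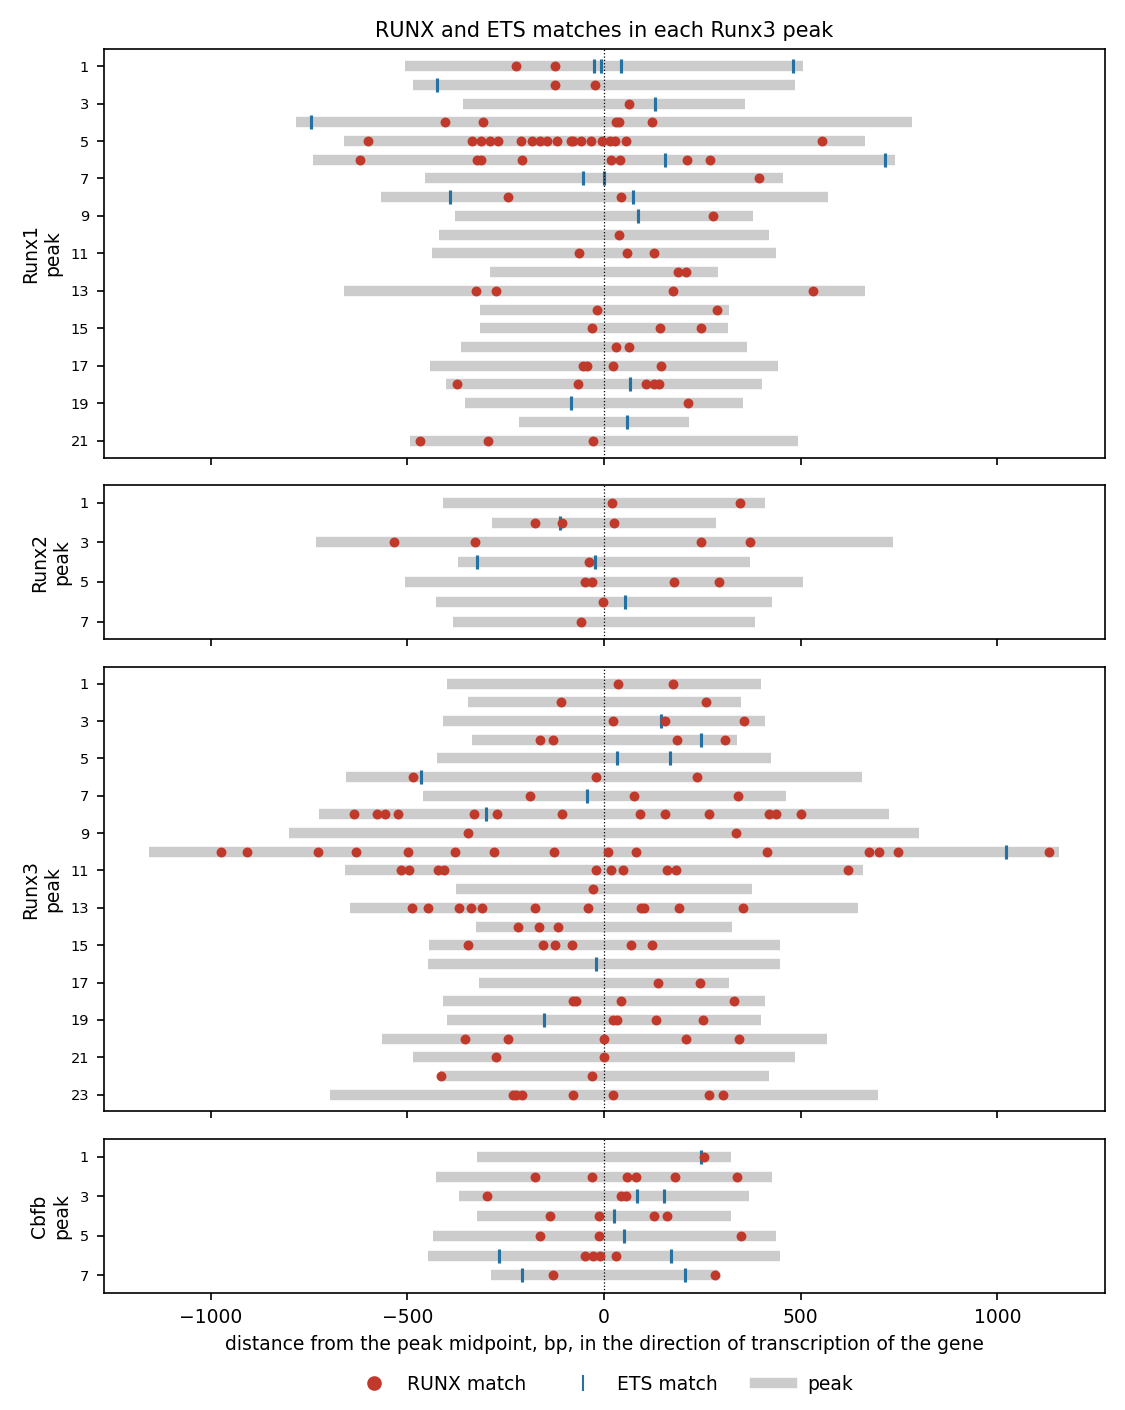
Positions of RUNX matches (red dots) and ETS matches (blue ticks) in each of the 58 peaks, numbered from 5′ to 3′ in each window; the horizontal axis is the distance from the peak midpoint in bp in the direction of transcription, and grey bars show the peak. Runx1 peak 5 has most of its 19 matches in a dense row left of and at its middle, whereas the matches of Runx3 peaks 8, 10, 11 and 13 are spread over the peak.

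Genes for known partners of RUNX proteins were examined in the same windows. All 27 listed genes matched the annotation. Spi1, Kat6a, Kat6b and Kmt2a did so through their older symbols Sfpi1, Myst3, Myst4 and Mll1. Of the 27 genes, 26 (96.3%) had at least 1 Runx3 peak in the window, against the 72.4% of all genes. A peak over the gene body was found for 17 of 27 (63.0%), against 33.6%. The corepressors, which include the Groucho/TLE proteins, had a peak in 11 of 12 windows with a median of 5 peaks. The coactivators and modifiers, such as the acetyltransferase p300, had one in 9 of 9 with a median of 3, and the DNA-binding partners had one in 6 of 6 with a median of 9.5. Most peaks were at Aes, a short Groucho family member (18), and at Smad3, a mediator of TGF-beta signals, Tbx21, the gene of T-bet, and Tle2 (17 each). Aes and Tle2 are neighbours and share 17 of these peaks. Per 100 kb of window there were 8.70 peaks at Aes, 7.86 at Tle2, 7.82 at Tbx21 and 5.46 at Smad3. The gene without a peak was Runx1t1, which encodes the corepressor ETO and had 0.322% of its window marked by H3K4me1.

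Genes most like each member were found by window length, number of Runx3 peaks and marked share. They were Vps13d, 4933407C03Rik and Arhgef3 for Runx1, Cux1, Foxp1 and Sipa1l1 for Runx2, Gimap1, Chsy1 and Znrf2 for Runx3, and Snapc3, C9 and Ccdc13 for Cbfb. The closest to Runx3, Gimap1, a GTPase gene of lymphocytes, had 19 peaks and 57.5% of its window marked. The closest to Runx2, Cux1, had 10 peaks and 20.5%, and the closest to Runx1, Vps13d, had 23 peaks and 34.3%. The likeness rests on single lists and on 3 measures per gene.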

How the data were processed

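ChIP-seq was done on 3 samples of resting splenic NK cells, 1 each for Runx3, H3K4me1 and NIS. The authors, by their labels and methods, aligned reads to mm9 with ELAND, kept unique alignments, joined the reads of biological repeats and called regions with MACS against NIS. CASAVA 1.7 is named in the submitters' processing notes. The labels speak of a first experiment for each sample, and which reads went into a list cannot be read from it. The deposited files hold region start and end coordinates and no value of signal, and 2 lists were used. Coordinates are printed 1-based.

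Genes and transcripts came from the GENCODE vM1 annotation of the same build. Records of 1 symbol that lie together (Runx2 has more than 1) were joined. A region was counted when it shared at least 1 base with a window, and locations were given by the midpoint, or by a P1, P2 or Cbfb start when a peak covered one. Starts of the same kind within 1 kb were joined for the 4 members, but not for the starts of all protein-coding transcripts. The members, the lists and the measures were chosen with earlier results of these data known. All 4 members are named, of 27 partner genes those with the most peaks and with 0, and per member the 3 genes with the smallest Euclidean distance over z-scores of log2 window length, log2(peaks + 1) and marked percent. Sequences were read from the mm9 genome. The plan named the central 300 bases of the peak at each start or of the widest peak. Exon sequence was left out of these or cut to 30 bases, stretches without a RUNX match are not printed, and the repeat and the stretch at the Cbfb match were added after the values were seen. A table of promoters on another build was not used here. Of the planned marker genes, 1 is not reported here.

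No test was possible with 1 list per antibody, so values over the members are set beside those over all genes or peaks. Intervals are 95% Wilson intervals. Python 3.11.15, numpy 2.4.6, scipy 1.17.1, pysam 0.24.0 and matplotlib 3.10.9 were used, and the overlap, coverage and motif functions were tested on simulated data. The alternatives were flanks of 50 and 10 kb or none, wider regions only, midpoints, merging of regions within 1 kb, the central 200 bp and TGTGGT alone. A further one, the shorter annotated entry of Runx2, was chosen after seeing the data.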

Additional observations from a re-analysis of the deposited data

How the results depend on the processing

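Of 27 alternatives for the main counts and shares, 17 stayed within 1.5 times the value or within its interval. The 58 Runx3 peaks became 32 with flanks of 10 kb, 31 over the gene bodies alone and 32 when peaks wider than the median were kept. The 107 H3K4me1 regions became 69 with flanks of 10 kb and 62 over the bodies. The share of peaks that overlap H3K4me1 became 100% among wider peaks (32 of 32), and the share with a RUNX match became 70.7% in the central 200 bp and 70.7% for TGTGGT alone. The 5 starts of the Runx genes with a peak became 3 when the peak had to cover the start. The 26 partner genes with a peak became 17 over the gene body alone. With the shorter entry of Runx2, an alternative chosen after seeing the data, 56 peaks and 105 regions were counted. Of 56 alternative values for single genes, 20 moved. The depth at each region is unknown, so an unlisted place, such as the Runx2 promoters, may hold Runx3 below the threshold of the peak caller. No paired analysis was possible because the result comes from no test and each antibody has 1 list.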
